A study of Mus musculus with 48 samples.

Results

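MLO-Y4 is a mouse cell line that is widely used as a culture model of the osteocyte, the cell that sits inside mineralised bone and is joined to its neighbours by dendrites. The expression levels described here are those of MLO-Y4 cells that received no treatment. They are the 3 libraries labelled untreated among the 48 samples of a study of osteocytes in aging and under stress, and all 55335 gene rows of their table were read. The cells are labelled C57BL/6J and wild type, were kept in α-MEM with fetal bovine serum, and served as controls for cells given ADP for 2 h. The labels do not say whether the 3 libraries came from separate cultures, so the spread between them may be technical. With 1 group of 3 libraries there is no contrast, and levels, ranks and shares are described without a test. For level alone, 3 libraries of vehicle-treated MLO-Y4 cells and 3 of untreated cortical bone, both also labelled C57BL/6J and wild type, are set beside them at the end. The bone samples are titled 18m and make up the study's old cortical bone group.

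Osteocytes develop from osteoblasts, which lay down type I collagen and mineralise it. Buried osteocytes are known for Sost, which restrains Wnt signalling, for Dmp1, Mepe, Phex and Fgf23, which bear on mineral and phosphate handling, and for the dendrite protein podoplanin (Pdpn). They are joined by gap junctions of connexin 43 (Gja1) and direct osteoclasts through RANKL (Tnfsf11) and its decoy receptor osteoprotegerin (Tnfrsf11b). As background, MLO-Y4 was made from the long bones of mice that carry the SV40 large T antigen under the osteocalcin promoter, so it is an immortalised line and not a primary cell.

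Values are FPKM as deposited, the number of sequenced fragments of a gene scaled to its transcript length and to the depth of the library. Because FPKM is per length, levels of different genes can be set side by side, and a share of summed FPKM approximates a share of transcripts and not of fragments. A gene is called detected at a mean of at least 1 FPKM.

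The upstream sequences of 7 genes that the results turn on are printed here, because the highest gene of the cells and several osteocyte genes at or near 0 can be read against each other letter by letter. Each is the 100 bases before the RefSeq start (GRCm38.p6), 5′ to 3′ on the gene's strand. Capitals mark a CCAAT box (CCAAT or ATTGG), a GC box (GGGCGG or CCGCCC) or a TATA-like element (TATAAA, or TTTAAA, which is its own reverse complement). The 2 TATA-like elements were searched only from base -45 to base -15. Spp1 (osteopontin), chr5:104435011-104435110 on the plus strand, and Dmp1 (dentin matrix protein 1), chr5:104202517-104202616 plus, and Mepe (matrix extracellular phosphoglycoprotein), chr5:104325229-104325328 plus, lie in 1 gene cluster. Sost (sclerostin) is at chr11:101967016-101967115 minus, and Grem1 (gremlin 1, a BMP antagonist) at chr2:113758649-113758748 minus. Csf1 (macrophage colony-stimulating factor) is at chr3:107760470-107760569 minus, and Pgk1 (phosphoglycerate kinase, a glycolytic enzyme) at chrX:106187000-106187099 plus.
Spp1: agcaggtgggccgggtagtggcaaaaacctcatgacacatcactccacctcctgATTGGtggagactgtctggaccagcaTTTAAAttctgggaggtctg
Dmp1: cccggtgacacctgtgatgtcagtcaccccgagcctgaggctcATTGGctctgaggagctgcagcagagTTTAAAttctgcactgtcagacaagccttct
Mepe: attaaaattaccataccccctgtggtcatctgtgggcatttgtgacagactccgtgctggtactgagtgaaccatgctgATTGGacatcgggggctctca
Sost: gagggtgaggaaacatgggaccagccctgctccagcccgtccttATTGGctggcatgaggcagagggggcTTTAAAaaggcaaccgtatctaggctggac
Grem1: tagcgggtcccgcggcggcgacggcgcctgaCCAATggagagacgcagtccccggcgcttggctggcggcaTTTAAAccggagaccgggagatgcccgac
Csf1: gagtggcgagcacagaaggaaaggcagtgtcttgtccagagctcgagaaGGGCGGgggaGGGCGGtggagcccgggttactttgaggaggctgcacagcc
Pgk1: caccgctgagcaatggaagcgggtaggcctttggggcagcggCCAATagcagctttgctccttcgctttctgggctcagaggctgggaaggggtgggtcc

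Across the table, 11575 of the 55335 rows (20.9%) were detected, and 9946 of 21886 protein-coding genes of the nuclear genome (45.4%). Of those nuclear genes, 4196 stood at 10 FPKM or above, 278 at 100 or above and 5 at 1000 or above, and 6920 were at 0 in every library. The 3 libraries were alike: their summed FPKM lay between 274215 and 277077, and the correlation of log2(FPKM + 1) across the 11575 detected genes was 0.988 to 0.991 for the 3 pairs. Steps in the low FPKM values put the depth at about 21.3, 21.7 and 23.7 M fragments (M stands for 1000000). That estimate is approximate, since 42.6% to 42.9% of the low values were whole fragments within a tolerance of 0.1. At that depth a count of 0 in all 3 libraries allows up to 0.0225 FPKM for a gene of 2 kb, counting error only.

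Spp1 stood first among all rows. Its level was 8561, 8802 and 8462 FPKM, a mean of 8609 ± 175 (SD, n = 3). Osteopontin is a phosphorylated glycoprotein of bone matrix that binds integrins and CD44. It alone made up 4.26% ± 0.09 of the summed FPKM of nuclear protein-coding genes, and the 10 highest of them together 8.83% ± 0.02. The 100 highest held 24.3% ± 0.2, and 685 to 702 genes were needed to reach 50%.

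After Spp1 came Eef1a1, a translation elongation factor, at 1650, 1605 and 1628 FPKM. Lgals1, the lectin galectin 1, followed at 1474, 1383 and 1494 FPKM. Cxcl5, a chemokine that draws neutrophils, was next at 1235, 1299 and 1309 FPKM. The ranges of Lgals1 and Cxcl5 did not overlap, and neither overlapped its neighbours in the order. Next came genes of general cell upkeep: Rplp1 of the ribosome, the chaperone Hsp90ab1, Pgk1 and Rplp0 were between 759 and 1067 FPKM on average. Saa3, an acute-phase serum amyloid A, was nineteenth at 572, 621 and 580 FPKM, and its range overlapped those of Hsp90b1 and Rpl19 on either side of it.

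**Figure D1:**
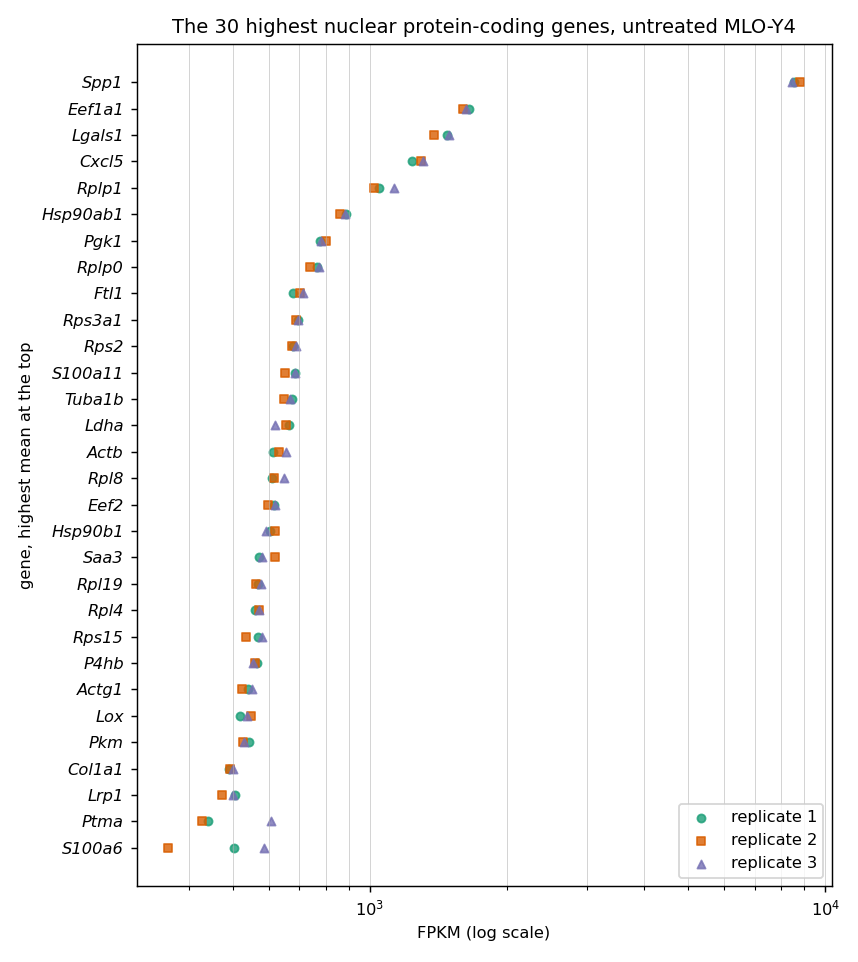
FPKM on a log axis of the 30 nuclear protein-coding genes with the highest mean, with 1 symbol for each of the 3 untreated libraries. Spp1 lies between 8462 and 8802 and the next gene, Eef1a1, between 1605 and 1650, while most symbols of a gene lie on each other and those of S100a6 and Ptma do not.

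Genes of the mitochondrial genome made up 11.2% ± 0.3 of summed FPKM in 13 mRNAs, led by mt-Co1, a subunit of cytochrome oxidase, at 5640, 5436 and 5465 FPKM. Pseudogenes made up a further 11.5% ± 0.2, and part of that signal carries sequence that cannot be told from functional genes. A block of 7 pseudogenes at chr1:24611535-24616197 held 4.65% ± 0.10 of summed FPKM, and the sequences of Gm10925 (3524 FPKM on average), Gm28661 (2791) and Gm28437 (2132) matched mt-Atp6, mt-Co2 and mt-Co3 over 100% of their 31-base words. The matched mitochondrial genes averaged 3279, 2780 and 2123 FPKM. Levels within the block were not always this close: Gm28439 was at 874 FPKM and matched mt-Nd4, at 1417, over 100% of its words, and Gm29216 was at 1845 and matched mt-Co1, at 5514, over 97.2%. Gm13394 was at 1278 FPKM and shared 96.8% of its words with Gapdh, which was at 454 FPKM. Tpt1-ps3 (331 FPKM) and Gm10736 (431) matched Tpt1 (375) and Rpl41 (173) over 100% of their words. Gm15459 (295) shared 91.9% of its words with Hspa8 (181), and Gm8730 (715) shared 62.8% with Rplp0 (759). Only the highest pseudogenes were searched in this way. The levels of Gapdh and these other nuclear genes, of the matched mitochondrial mRNAs and of their copies are therefore uncertain. The handling of fragments that map to several places was not given in the sources used here.

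Of 226 listed matrix genes 114 (50.4%) were detected, beside 45.4% of all nuclear protein-coding genes, and the class held 5.90% ± 0.09 of summed FPKM, of which Spp1 was 52.9%. Without Spp1 the other 225 genes held 2.78% ± 0.01. Of the 10 genes listed as SIBLING and mineral-binding proteins, Spp1 alone was detected.

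The contrast was sharpest inside the SIBLING cluster itself, a family of acidic phosphoproteins of bone and tooth. Within the 238 kb from Dmp1 to the end of Spp1 (chr5:104202613-104441050, GENCODE M21, plus strand) the annotation holds 4 protein-coding genes. Dspp, a further member of the family, lies before Dmp1 and outside this stretch, and was at 0 in every library. Dmp1 was at 0.017, 0.017 and 0 FPKM, and Ibsp (bone sialoprotein) at 0, 0.111 and 0 FPKM. Mepe was at 0 in every library, which allows at most 0.0267 FPKM at the estimated depth. Spp1, at the other end, was at 8462 or above in each library. The 3 printed upstream sequences of the cluster each hold a CCAAT box, and those of Spp1 and Dmp1 also a TTTAAA element, at base -20 and base -31. Sost, at 0 FPKM in every library, and Grem1, at 366 FPKM, hold the same pair of motifs. A TTTAAA in that window was found in 1.47% of the 10714 promoters that could be searched, in 0.644% of those of detected genes and in 3.23% of those of genes at 0 in all libraries, and a CCAAT box within 250 bases in 37.8% of all. A match describes letters only.

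Type I collagen was present with its processing enzymes. Col1a1, which encodes the α1 chain, stood at 492, 494 and 500 FPKM. Col1a2, the α2 chain, was at 68.6, 68.6 and 67.0 FPKM, so the ratio of α1 to α2 was 7.17, 7.20 and 7.47 in the 3 libraries. Type I collagen protein is usually built from more α1 than α2 chains, but the ratio here is of RNA and chains were not measured. Col3a1 was at 202 ± 4 FPKM (SD, n = 3), Col5a2 at 100.4 and Col2a1, the cartilage collagen, at 0 in every library. Of 32 processing enzymes 26 were detected, led by P4hb, a subunit of prolyl 4-hydroxylase, at 566, 559 and 555 FPKM. Lox, the enzyme that starts collagen cross-links, was at 520, 549 and 537 FPKM, and Pcolce, an enhancer of procollagen cleavage, averaged 144 FPKM.

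Among 53 matrix glycoproteins 25 were detected. Fibronectin (Fn1) was at 368, 365 and 371 FPKM, and the thrombospondins Thbs1 and Thbs2 averaged 329 and 307 FPKM. Sparc, an abundant non-collagen protein of bone, was at 187, 188 and 186 FPKM. Postn, a protein of the periosteum, was at or near 0, and Eln, which encodes elastin, was at 0 in every library. Of the 35 proteoglycans 15 were detected, led by the cell-surface syndecans Sdc4 (172 FPKM) and Sdc1 (154 FPKM), while the small leucine-rich proteoglycan decorin (Dcn) was at 34.6 and biglycan (Bgn) at 0.924. Among 41 proteases and inhibitors 27 were detected. The inhibitor Timp1 was at 398, 400 and 401 FPKM, the gelatinase Mmp2 averaged 307 and the inhibitor Timp2 averaged 189. Mmp13, a collagenase of bone, averaged 0.738 FPKM.

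**Figure D2:**
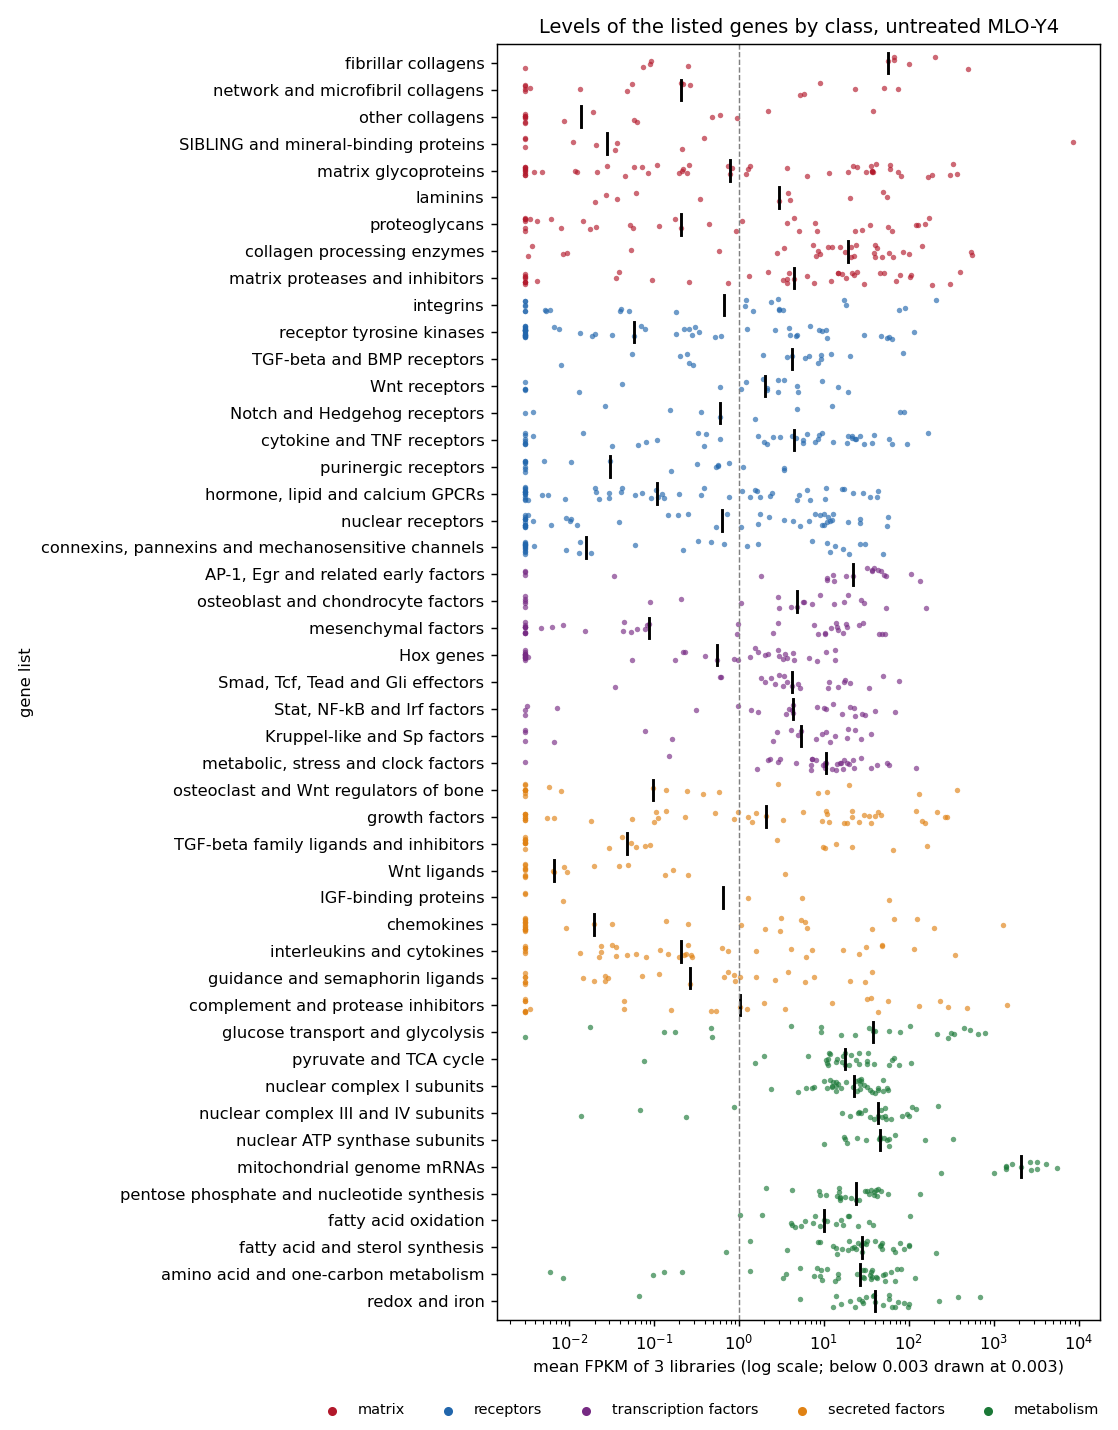
Each point is a gene at its mean FPKM over the 3 untreated libraries (log axis), arranged by gene list and coloured by class, with a bar at the list's median over all members and a dashed line at 1 FPKM. Metabolic lists lie almost wholly to the right of the line, while most receptor and secreted factor lists spread across it, with members at 0 in the list of Wnt ligands and its highest member at 3.47 FPKM.

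Of 330 listed receptors and membrane channels 145 (43.9%) were detected and 64 (19.4%) stood at 10 FPKM or above, near the 45.4% and 19.2% of all nuclear protein-coding genes. The class held 1.02% ± 0.01 of summed FPKM. The lists leave out the endocytic receptor Lrp1, which was at 507, 475 and 502 FPKM, above every listed receptor. The 3 listed members at 100 FPKM or above were the integrin chain Itgb1 at 207, 214 and 204 FPKM, the interleukin 33 receptor Il1rl1 at 173, 160 and 174, and the kinase Axl at 117, 113 and 117. Itgb1 lay above Il1rl1 in every library, and Il1rl1 above Axl. The fibronectin receptor chain Itga5 stood at 75.3, 76.1 and 78.3 FPKM and Itgav, a chain of receptors for vitronectin and osteopontin, at 22.0, 11.5 and 21.5. The second library was the low one for Itgav, outside the spread of the others.

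Among 55 receptor tyrosine kinases 17 were detected. The collagen receptor Ddr2 averaged 63.3 FPKM, Pdgfrb 59.2 and Epha2 56.3. The VEGF receptor Kdr and the FGF receptor Fgfr2 were at 0 in every library, and Fgfr1 averaged 10.9 FPKM. Among receptors for the TGF-β family 11 of 17 (64.7%) were detected, beside 45.4% of all nuclear protein-coding genes. The coreceptor Tgfbr3 (betaglycan) stood at 86.5, 86.8 and 85.9 FPKM, Bmpr1a at 20.5 on average and the signalling receptor Tgfbr2 at 9.26. For Wnt, 13 of 20 receptors were detected, led by Fzd1 (19.4 FPKM) and the coreceptor Lrp6 (14.7). Lrp5, the coreceptor whose variants change bone mass, averaged 0.593 FPKM.

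Channels and junction proteins that osteocytes use to sense load and talk to each other were read as 1 list of 34, of which 11 were detected. Piezo1, a mechanosensitive cation channel, was the highest at 49.2, 48.6 and 51.9 FPKM. Gja1 was at 29.3, 31.9 and 29.8 FPKM, below Piezo1 in every library. Gjc1 (connexin 45) averaged 7.25 FPKM, Trpv4 1.26, and 12 members, Panx1 among them, were at 0 in every library. Purinergic receptors, through which extracellular ATP, ADP and adenosine act, held the smallest share of the receptor lists, 0.0039%. Of the 19 members 3 were detected and none reached 10 FPKM. P2rx4 and the adenosine receptor Adora2b averaged 3.36 FPKM each, and P2ry2 was at 1.23, 1.10 and 1.02 FPKM. P2ry6 was at 0.252, 0.059 and 0.160 FPKM, and P2rx1, P2ry1, P2ry4, P2ry12, P2ry13 and Adora3 were at 0 in every library.

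Of 54 hormone, lipid and calcium receptors coupled to G proteins 20 were detected. Ackr3, a scavenger of the chemokine Cxcl12, stood at 43.1 FPKM, the sphingosine receptor S1pr1 at 41.8 and the thrombin receptor F2r at 34.9. The parathyroid hormone receptor Pth1r, a main endocrine input to osteocytes in bone, was at 0.032, 0.063 and 0.028 FPKM. Of 48 nuclear receptors 23 were detected. Rarg led at 57.3 FPKM with Nr4a1 at 55.2, ranges that overlapped between libraries. The glucocorticoid receptor Nr3c1 averaged 12.7, the vitamin D receptor Vdr 9.94 and the oestrogen receptor Esr1 1.06 FPKM, while Pparg was at 0 in every library.

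Transcription factors were the class with the greatest share of members detected after metabolism, 155 of 228 (68.0%), beside 45.4% of all nuclear protein-coding genes. The class held 1.06% ± 0.02 of summed FPKM. The 4 at 100 FPKM or above were Atf4, a factor of amino acid stress and osteoblast maturation, at 151, 161 and 162 FPKM, the growth response factor Egr1 at 143, 134 and 135, the hypoxia factor Hif1a at 123, 125 and 120, and Junb at 100.2, 108 and 110. Egr1 lay between Atf4 and Hif1a in every library. Among AP-1, Egr and related early factors 17 of 21 were detected. Fos was at 12.3, 13.5 and 12.8 FPKM, below Fosl1 (54.1 on average), Fosl2 (47.7) and Jun (37.0).

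The osteoblast master factors were uneven. Runx2, which commits cells to the osteoblast lineage, was at 9.55, 8.82 and 9.09 FPKM. Sp7 (osterix), which acts after it, was at 0.123, 0.054 and 0.093 FPKM, and Dlx5, Dlx6, Msx2 and Zfp521 were at 0 in every library. Sox9, a cartilage and progenitor factor, was at 19.1, 19.4 and 19.6 FPKM, above Runx2 in each. Among mesenchymal factors 18 of 41 were detected, led by Tbx15 (52.8 FPKM), Osr1 (49.1), Snai1 (45.2) and Twist1 (29.1). The Hippo coactivator Wwtr1 (TAZ) stood at 49.5 FPKM against 11.5 for its relative Yap1, a ratio of 3.93 to 4.70.

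Hox genes, whose combined expression records position along the body axis, were detected in 3 clusters and listed at 0 throughout HoxB. Of 39 members 17 (43.6%) were detected, near the 45.4% of all nuclear protein-coding genes. They were 10 of 11 in HoxA, 4 of 9 in HoxC and 3 of 9 in HoxD. All 10 HoxB genes were listed at 0 in every library, which at the estimated depth allows from 0.0106 FPKM for Hoxb3 to 0.0291 for Hoxb7. The highest members were Hoxc10 at 12.9, 14.4 and 13.7 FPKM and Hoxa11 at 5.76, 17.1 and 17.6, followed by Hoxd8 at 10.5 and Hoxa10 at 8.43 on average. The first library was the low one for Hoxa11, outside the spread of the others. An antisense gene over the same locus, Hoxa11os, was at 4.80, 5.12 and 3.40 FPKM, and use of strand in the counting was not given in the sources used here. Paralog groups 1 to 4 had 4 of 12 members detected and groups 5 to 8 had 5 of 11. Groups 9 to 11, which pattern the limb and the posterior trunk, had 7 of 10 and groups 12 and 13 had 1 of 6. Pitx1, a factor of the hindlimb, was at 9.58, 11.2 and 10.5 FPKM, while Tbx5, a factor of the forelimb, was at 0 in every library and Tbx4, a hindlimb partner of Pitx1, at 0.043 on average.

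**Figure D3:**
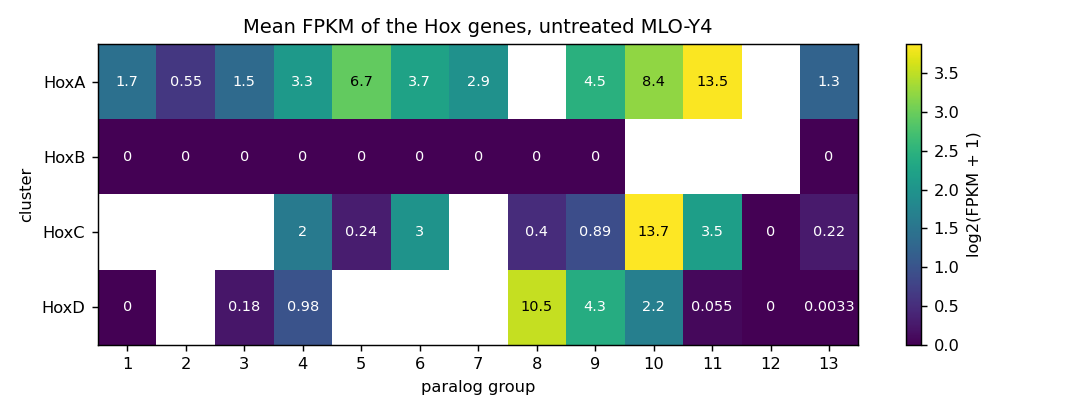
Mean FPKM of each Hox gene by cluster (rows) and paralog group (columns), coloured by log2(FPKM + 1), white where the mouse genome has no such gene. The HoxB row is 0 throughout, and the highest cells are Hoxc10 at 13.7 and Hoxa11 at 13.5.

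Of 236 listed secreted factors 90 (38.1%) were detected, beside 45.4% of all nuclear protein-coding genes, and the class held 2.82% ± 0.06 of summed FPKM. A share of 1.68% ± 0.02 remained without galectins, S100 proteins and other proteins that also act inside the cell. The secreted lists leave out Saa3, at 572, 621 and 580 FPKM, and Spp1 was counted with the matrix genes. Chemokines were uneven: 12 of 31 were detected and 5 stood at 10 FPKM or above, and Cxcl5 alone made up 73.8% of their summed FPKM. Cxcl1 was at 198, 206 and 190 FPKM and Cxcl3 at 121, 125 and 125. Ccl2, which draws monocytes, averaged 67.6 FPKM, and Cxcl12, an abundant chemokine of marrow stroma, was at 0 in every library. The receptors of Cxcl5, Cxcl1 and Cxcl3 were near 0, with Cxcr2 at 0.0096 and Cxcr1 at 0.0189 FPKM on average.

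Secreted regulators of bone ranged from 0 to 366 FPKM. Of 21 listed regulators of osteoclasts and of Wnt signalling 6 were detected. Sost, Dkk1, Sfrp1, Sfrp2, Sfrp5, Frzb, Notum and Nog were at 0 in every library. Grem1 was at 366, 362 and 370 FPKM, and Csf1, which macrophages and osteoclast precursors need, at 139, 123 and 138. RANKL (Tnfsf11) was at 18.9, 20.6 and 20.3 FPKM and its decoy Tnfrsf11b at 0.257, 0.247 and 0.241, a ratio of 73.3, 83.2 and 84.3. The receptors of these 2 osteoclast factors were low, with Tnfrsf11a (RANK) at 0 in every library and Csf1r at 0.180 FPKM on average.

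Growth factors had 27 of 47 detected. The EGF receptor ligand Ereg (epiregulin) was at 278, 282 and 283 FPKM and Areg averaged 29.4, beside their receptor Egfr at 8.76. The matricellular factors Cyr61 and Ctgf averaged 268 and 123 FPKM, both known as targets of Yap1 and Wwtr1. Vegfa was at 212, 213 and 219 FPKM, Fgf7 at 142 on average and Hgf at 21.4. Among cytokines 11 of 36 were detected, with Lif at 119, 115 and 113 FPKM, Il6 at 47.7, 51.2 and 46.1 and Il11 at 25.8 on average. Their shared receptor chain Il6st averaged 39.4 FPKM. Il33 averaged 31.8 FPKM beside the 169 of its receptor Il1rl1, and Il1b and Tnf were at 0.062 and 0.226. Of 19 Wnt ligands only Wnt10a was detected, at 3.18, 3.48 and 3.76 FPKM. In the TGF-β family 7 of 22 were detected, led by Fstl1 (162 FPKM) and Inhba (66.0), while Bmp2, Bmp5 and Bmp7 were at 0 in every library. Among binding proteins of insulin-like growth factors, Igfbp6 was at 58.1, Igfbp5 at 5.51 and Igfbp1 and Igfbp3 at 0.

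Metabolic genes were almost all on. Of 289 members 271 (93.8%) were detected and 232 (80.3%) stood at 10 FPKM or above, beside 45.4% and 19.2% of all nuclear protein-coding genes. The class held 16.2% ± 0.2 of summed FPKM, or 5.02% ± 0.05 without the mitochondrial mRNAs. The median member was at 27.2 FPKM, against 0.332 for receptors and 0.140 for secreted factors. Glycolysis and glucose transport held 1.45% ± 0.02. Pgk1 was at 776, 800 and 781 FPKM, Ldha, which makes lactate, at 664, 654 and 620, and Pkm at 544, 527 and 528. Pgk1 lay above Ldha in every library, and Ldha above Pkm.

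A few pairs of related genes were compared, chosen after the values were seen. Ldhb, the heart-type partner of Ldha, was at 0.209, 0.088 and 0.239 FPKM. The lactate carrier Slc16a1 was at 77.9, 80.8 and 79.6 FPKM while Slc16a3, the form common in glycolytic muscle, was at 0.454, 0.487 and 0.510. Hexokinase was shared between forms, with Hk2 1.95, 2.43 and 2.00 times Hk1. Slc2a1, the general glucose transporter, averaged 58.2 FPKM and the insulin-regulated Slc2a4 was at 0 in every library. All 36 nuclear complex I subunits and all 16 ATP synthase subunits were detected, at medians of 22.9 and 46.3 FPKM, and 29 of 30 genes of pyruvate and the TCA cycle at a median of 17.8. In lipid synthesis Scd1, which introduces a double bond into fatty acids, was at 208, 214 and 207 FPKM. Fatty acid oxidation had a median of 10.1 FPKM, and Cpt1a, its entry enzyme, was at 9.32, 8.61 and 9.03. The iron store ferritin was among the highest of all: Ftl1 averaged 698 and Fth1 385 FPKM.

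The label of the cells was set beside marker genes. Of the markers given for the line, Spp1 was first, Pdpn was at 157, 151 and 157 FPKM (rank 148 of the nuclear protein-coding genes) and Gja1 averaged 30.3 (rank 1316). In the osteocyte list 8 of 14 were detected, beside 45.4% of all nuclear protein-coding genes. The 8 included Cd44 (127 FPKM), Capg (78.6), Ackr3 (43.1) and Phex, a protease that acts on SIBLING proteins, at 7.45, 7.97 and 7.04. Sost, Mepe and Dkk1 were at 0 in every library, and Dmp1 and Fgf23 at 0.0112 and 0.0080 on average. The osteocyte list was thus split: Sost, Mepe, Dkk1, Dmp1 and Fgf23 were not detected, while Phex, Spp1, Pdpn and Gja1 were. In the osteoblast list Col1a1, Col1a2 and Runx2 were detected and Alpl, the phosphatase of mineralising cells, Bglap (osteocalcin), Sp7, Ibsp and Pth1r were not.

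Most marker lists of other cell types were nearly silent, but the fibroblast list was not. No listed marker of adipocytes, skeletal muscle, smooth muscle, endothelium or epithelium was detected. Of the 8 macrophage and leukocyte markers Cd14 alone was (18.5, 19.4 and 18.9 FPKM), with Adgre1, C1qa and Itgam at 0 in every library, and among osteoclast markers Mmp9 (6.30) and Ctsk (3.91) were, with Acp5, Ocstamp and Dcstamp at 0. Elsewhere Sox9 of the cartilage list, S100a8 (4.93) and Camp (2.57) of the B cell and neutrophil list, Hba-a1 (1.01) and Tubb3 (1.71) were detected. Fibroblast markers were split, with 5 of 8 detected: S100a4 at 293, Col3a1 at 202, Dcn at 34.6, Pdgfra at 29.6 and Prrx1 at 18.5 FPKM. These 5 genes are also expressed by mesenchymal bone cells, and whether they mark a fibroblast-like state here was not tested. Lum, Thy1 and Fap of the same list were not detected, at 0.053, 0.035 and 0.015 FPKM on average. Xist averaged 0.0025 FPKM and the 4 listed Y-linked genes were at 0.

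**Figure D4:**
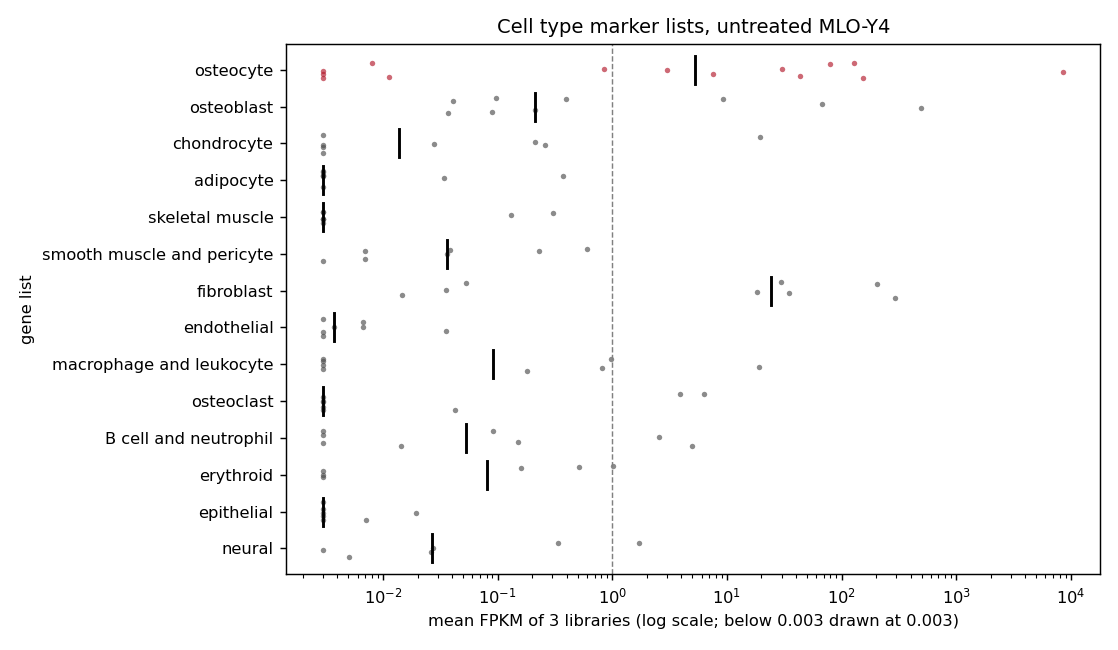
Each point is a marker gene at its mean FPKM over the 3 untreated libraries (log axis), by cell type list, with osteocyte markers in red, a bar at each list's median and a dashed line at 1 FPKM. Osteocyte markers run from 0 to 8609 FPKM with a median of 5.23, the fibroblast median is 24.1, and those of the other lists lie below 1.

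Proliferation genes were all on. All 40 listed cell cycle and mitosis genes were detected, with Mki67 at 136, 129 and 129 FPKM, Rrm2 at 136 and Pcna at 115 on average. Cdkn2a, whose products p16 and p19ARF hold back the cell cycle, was at 96.2, 104 and 106 FPKM at the same time, above Cdkn1a (24.2). Trp53 was at 23.1, 22.4 and 21.5 FPKM. Of 15 inhibitors and p53 targets 13 were detected. Ribosomal proteins, all 81 detected, held 5.86% ± 0.13 of summed FPKM, near the 5.90% of the matrix class.

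The spread between libraries narrowed as the level rose. The median coefficient of variation, the SD as a percentage of the mean, was 7.77% for nuclear protein-coding genes from 1 to 3 FPKM, 3.58% from 10 to 30 and 2.30% at 300 or above. A few genes stood far outside this. Kirrel, which encodes an adhesion protein, was at 64.1, 18.3 and 18.3 FPKM, a variation of 78.7%. Fam102b was at 17.8, 47.5 and 11.7 FPKM and Crk, a signalling adaptor, at 13.3, 37.2 and 14.5. Each of the 3 had 1 high library, the first for Kirrel and the second for the others. The remaining genes of the 10 most variable at 10 FPKM or above were Pcdhga9, Eif1a, Ftl1-ps1, Sumo2, Lims1, Tomm5 and Fen1, with variations of 49.7% to 68.8%.

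Other samples of the study were read beside these only for level, from tables that were deposited separately, so no difference between them was tested. The vehicle cells are MLO-Y4 titled as given DMSO, for 1 h by the protocol, although their treatment field names oligomycin A as well. In them Spp1 was also first, at 6477, 6273 and 6496 FPKM, and 80 to 82 of the 100 highest nuclear protein-coding genes of each vehicle library were among the 100 of the untreated cells. Saa3 stood second there, at 2369, 2118 and 2206 FPKM. The second vehicle library stands apart, with 5.93% of its summed FPKM in rRNA-like genes against 0.239% to 0.257% in the untreated ones. Sost, Mepe, Dmp1 and Ibsp were at 0 in every vehicle library.

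Old cortical bone of femur and tibia had Dmp1, Ibsp, Mepe and Spp1 above 10 FPKM in each library. The protocol does not make clear whether marrow was removed from it. Summed FPKM was 816890 to 839628 in the bone libraries against 274215 to 277077 in the untreated cells, so the same FPKM is a smaller share of the total in bone. Spp1 was at 399, 444 and 429 FPKM there (rank 65). Mepe was at 25, 148 and 25.9 FPKM, Dmp1 at 11.5, 43.9 and 10.9, and Ibsp at 118, 111 and 119. Bglap was at 1896, 1231 and 2070 FPKM in bone and at 0.243, 0.427 and 0.509 in the untreated cells. Other osteocyte markers were low in bone: Pdpn was at 1.34, 2.30 and 0.122 FPKM, Gja1 at 3.44, 3.56 and 3.35 and Phex at 0.195, 0.462 and 0.374. Each of these lay below its level in every untreated library. Cdkn2a, at 102 FPKM on average in the cells, was at 0 in every bone library. Bone holds many cell types, and in such tissue fewer cells of a type and less RNA per cell cannot be told apart.

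**Figure D5:**
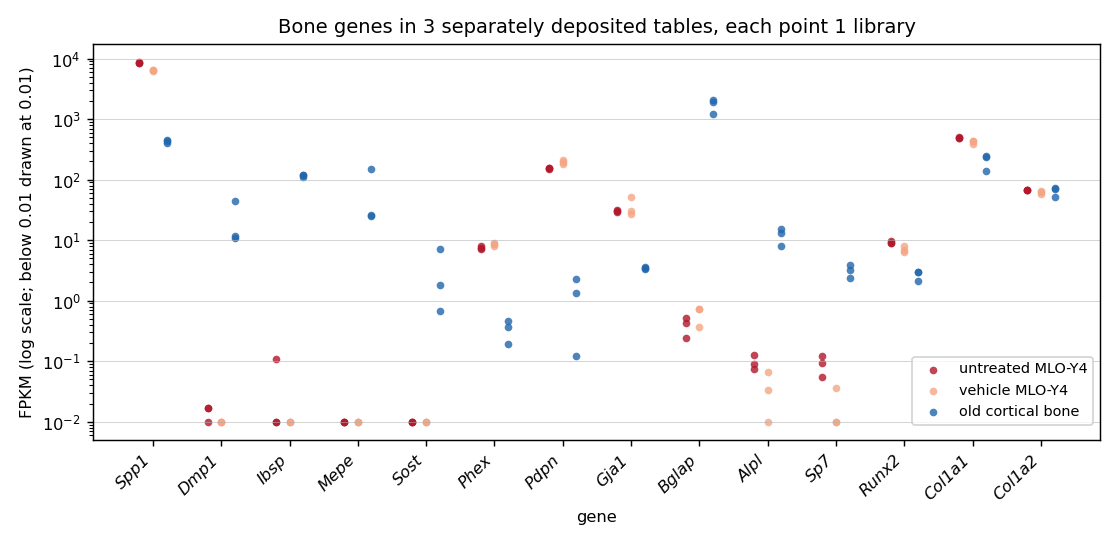
FPKM of 14 bone genes on a log axis, each point a library of untreated MLO-Y4, vehicle MLO-Y4 or old cortical bone, with values below 0.01 drawn at 0.01. Both MLO-Y4 groups lie high for Spp1, Pdpn and Gja1 and at or near the floor for Dmp1, Ibsp, Mepe and Sost, while the bone libraries lie above 0.6 FPKM for each of those 4.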

How the data were processed

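Poly(A) RNA of the cells was sequenced on an Illumina NovaSeq instrument, per the labels' protocols. The FPKM values are those the authors deposited, 1 table for each experiment, used with no further scaling. HTSeq and the mm10 build appear in the submitters' processing notes, without a role, and the software that computed FPKM was not given in the sources used here. Columns of the 3 untreated, 3 vehicle and 3 old cortical bone libraries were read, and 18 other sample columns of the tables were not used. Of 55335 rows 55154 matched GENCODE M21 (GRCm38), which gave gene type, position and exonic length. Means and SDs are over 3 libraries. Python 3.11.15 with pandas 2.3.3 and numpy 2.4.6 was used, and the depth estimate was tested on simulated data. No test was run, since the 3 libraries form 1 group with no contrast.

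The 69 gene lists (1605 symbols, 1601 matched) and the genes described were chosen with earlier results of these data known. Genes named by rule were the 20 highest named protein-coding genes, the 4 highest of each list, listed members at 0, the 10 most variable genes at 10 FPKM or above and a fixed set of bone and control genes. Saa3, Lrp1, the receptors set beside their ligands, second isoforms and the other genes outside that rule, the printed sequences and the motifs and windows searched in them were chosen after values were seen. Promoters were matched by symbol and strand for 16291 of 21886 nuclear protein-coding genes, and 10714 had a RefSeq start within 50 bases of the GENCODE start and were searched. Alternatives were other denominators, thresholds, log means, rescaling and leaving out each library.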

Additional observations from a re-analysis of the deposited data

How the results depend on the processing

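No paired analysis was possible because the results come from 1 group and from no test. Leaving out each library moved the class shares between 5.85% and 5.93% (matrix), 1.02% and 1.03% (receptors), 1.05% and 1.07% (transcription factors), 2.79% and 2.85% (secreted factors) and 16.1% and 16.3% (metabolism), and the number of detected genes between 11579 and 11594. Without mitochondrial genome genes in either class or total, those shares were 6.68%, 1.16%, 1.20%, 3.19% and 5.68%. Over protein-coding genes alone they were 6.98%, 1.21%, 1.26%, 3.34% and 19.2%. With FPKM multiplied by exonic length, a share of fragments, they were 6.19%, 1.81%, 1.53%, 2.11% and 8.36%. Metabolism thus held more than matrix under each of these except without mitochondrial genes, and receptors held more than transcription factors only as a share of fragments. Thresholds of 5 and 10 FPKM left 7102 and 4574 genes. Requiring 1 FPKM in each library (11186 genes), a threshold of 0.5 (13037) and rescaled libraries (14301) stayed within 1.5 times. Of 297 named genes, means of log2 values moved 0 levels by more than 1 SD, as is nearly bound to happen with 3 libraries. Rescaling to a sum of 1000000 moved 286, because it multiplies all levels of a library by the same factor. Neither count bears on how stable the levels are. Leaving out a library moved 28 to 37 ranks of the named genes by more than 1 SD. Ranking protein-coding genes alone moved 274 of 296, because rows of other gene types were removed from the order. Medians over detected members alone moved for 50 of 63 lists. Depth limits genes at or near 0: their levels are known only as below about 0.02 FPKM for 2 kb of transcript.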

Other observations

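Ereg and the CXC chemokines described above are neighbours. In the window from 500000 bases before Cxcl5 to 500000 bases after it (chr5:90259360-91261624, GENCODE M21), which was chosen after the values were seen, 17 protein-coding genes are annotated, 9 were detected and 5 stood at 10 FPKM or above: Cxcl5, Cxcl3, Cxcl1, Ereg and Areg. The other 12 stood below 10 FPKM. Over all nuclear protein-coding genes 45.4% were detected and 19.2% stood at 10 FPKM or above. Pf4, which lies between Cxcl5 and Cxcl3, averaged 0.25 FPKM, Cxcl15 averaged 0.032, Cxcl2 3.04 and Epgn, a relative of Ereg, 0.163. Alb and Afp, the liver albumin genes at the start of the window, averaged 0.032 and 0.462 FPKM.

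Prostaglandin synthesis was on at more than 1 step. Ptgs2, the inducible cyclooxygenase, averaged 281 FPKM, Ptgs1 47.7 and Ptges, which makes prostaglandin E2, 43.6. Of the receptors for that product, Ptger4 averaged 6.83 FPKM, Ptger1 2.32 and Ptger2 0.0295. The enzyme Nt5e, which makes adenosine outside the cell, averaged 22.1 FPKM, while Entpd1 and Entpd2, which break down extracellular ATP and ADP, were at 0.0109 and 0.0046.

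Promoters of detected and silent genes differed in base composition. The 250 bases upstream held a median of 17 CpG in 5431 detected genes, 3 in 2971 genes at 0 in all libraries and 11 in all 10714. A GC box (GGGCGG, either strand) was found in 62.8%, 21.7% and 46.4% of them, and a TATA box (TATAAA, either strand, from base -45 to base -15) in 0.994%, 9.09% and 3.89%. Over listed secreted factors at 10 FPKM or above a TATA box was found in 5 of 28, or 3 of 28 on the gene's own strand, and over cytosolic ribosomal protein genes in 0 of 38. These shares are descriptions, with no test.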
